A study of Schizosaccharomyces pombe with 8 samples.

Results

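The 255 features named SPNCRNA. with a number from 600 to 1199 were followed across 4 genotypes of the fission yeast Schizosaccharomyces pombe. The rule that chose them used the name alone and left out features named as antisense. It was set with earlier results of these data known. The RNAs made up 255 of the 6973 features counted. All strains were h90, the homothallic mating type whose cells can mate with their own descendants, and were grown in minimal medium (EMM) at 30 °C to exponential phase. The genotypes were wild type (wt), mot2::natMX (mot2∆), mamRNA::natMX (mamRNA∆) and the double mutant mamRNA::hygTK mot2::kanMX (mot2∆ mamRNA∆), with 2 libraries each and 8 in all. Total RNA was depleted of ribosomal RNA and sequenced in pairs. Nothing in the labels says whether the 2 libraries of a genotype came from separate cultures or clones, so p-values measure the spread between these libraries, which may be technical. The double mutant carries other drug markers than the single mutants, and marker and genotype cannot be told apart.

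Fission yeast transcribes much of its genome outside protein-coding genes, and SPNCRNA numbers were given to such transcripts as they were annotated. Noncoding transcription through or beside a promoter is known to repress or to accompany the neighbouring gene, and many such RNAs are short-lived because the nuclear exosome degrades them. Mot2 is the ubiquitin ligase subunit of the Ccr4-Not deadenylase complex. The RNA mamRNA binds the YTH protein Mmi1, which recognises UNAAAC motifs and sends meiotic transcripts to the exosome, and it is named for its association with Mmi1 and with Mei2, the RNA-binding protein that switches cells to meiosis.

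In the RefSeq annotation of assembly ASM294v3, 246 of the 255 RNAs had an entry, 197 on chromosome I and 49 on chromosome III. Their annotated length ranged from 232 to 5123 bp with a median of 1023.5 bp. Of these, 121 overlapped no protein-coding gene, 85 overlapped one on the opposite strand only, 30 on the same strand only and 10 on both. Among the 121, the nearest protein-coding gene was a median of 211 bp away, and 61 lay upstream of it on the opposite strand, the arrangement of a divergent promoter. Another counted noncoding feature overlapped 89 of the 246, on either strand, and whether reads were shared was not tested. The build and annotation behind the counts are not given in the sources used here, and the boundaries counted may differ from those of RefSeq.

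Libraries held between 22381332 and 34667534 counts, and levels are given as counts per 1000000 counts of the library (CPM). All 255 RNAs had at least 1 count in some library and 251 passed the filter on low counts. Their median wt level was 5.66 CPM, against 36.1 CPM over all features. The deleted gene mot2 was at 21.2 and 24.5 CPM in wt, 4.24 and 4.32 CPM in mot2∆, 19.2 and 19.2 CPM in mamRNA∆ and 2.63 and 2.66 CPM in the double mutant, while the mamRNA feature was not analysed here. Ribosomal RNA took between 0.134% and 0.735% of each library, other than wt replicate 1 with 2.28%. Of 14 mating and meiosis genes, 12 were tested. Of these, 9 rose and 0 fell in mot2∆ against wt (median log2 fold change 1.19), 0 rose and 0 fell in mamRNA∆ (median -0.49), and all 12 were lower when the double mutant was set against mot2∆ (median -1.79). Their summed level was 1289 and 1145 CPM in wt, 3064 and 2642 in mot2∆, 933 and 1013 in mamRNA∆, with 1015 and 928 in the double mutant, and its part in the results was not tested.

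The sources do not say if strand was used in counting, and the counts bear on it. SPNCRNA.865 lies opposite SPAPB24D3.07c and was at 158 and 136 CPM in wt, 298 and 256 CPM in mot2∆, 1069 and 924 CPM in mamRNA∆ and 115 and 120.5 CPM in the double mutant. SPAPB24D3.07c itself was at 149 and 124 CPM in wt, 285 and 242 CPM in mot2∆, 1025 and 892 CPM in mamRNA∆ and 107 and 114 CPM in the double mutant. The RNA and the gene ran in parallel, at nearly equal counts, through all 8 libraries. SPNCRNA.1015, opposite the ribosomal protein gene rps1102, was at 431 and 459 CPM in wt and rps1102 at 416 and 443 CPM. Across 36 RNAs that protein-coding genes covered by 50% or more from the opposite strand, the wt CPM per kb had a Pearson correlation of 0.76 with that of the gene on the log2 scale, against 0.03 across 117 RNAs with no overlap and their nearest gene. For overlapped RNAs, reads from the RNA and from the gene cannot be told apart, and most of what follows concerns RNAs that overlap no protein-coding gene.

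A feature was called when edgeR's adjusted p was under 0.05 and the absolute log2 fold change over 1. On losing Mot2 in cells with mamRNA, 18 of 251 RNAs were higher and 25 lower, or 7.17% and 9.96%, where 4.68% and 3.88% of all 6620 tested features were. Loss of mamRNA alone left 24 higher and 4 lower, 9.56% and 1.59% against 2.52% and 1.47% of all features. In the double mutant against wt, 15 were higher and 16 lower, 5.98% and 6.37% against 3.04% and 5.76%. Removing mamRNA from mot2∆ cells gave 13 higher and 16 lower, 5.18% and 6.37% against 2.15% and 4.59%. Removing Mot2 from mamRNA∆ cells gave 7 higher and 38 lower, 2.79% and 15.1% against 4.15% and 5.71%. The interaction is the change on losing Mot2 without mamRNA minus the change on losing Mot2 with it. It was called above 0 for 15 RNAs and below 0 for 37, 5.98% and 14.7% against 4.46% and 6.69% of all features. Scaling by total counts in place of TMM moved the split in 3 of these comparisons, to 8 higher and 23 lower in the double mutant against wt, 9 and 19 against mot2∆ and 10 and 44 interactions. The libraries of each genotype enter several of these comparisons, so the 6 sets of counts are not independent. Calls within a set are not independent either, as 89 of the 246 annotated RNAs overlap another counted noncoding feature and may share reads. The overlapping RNAs from SPNCRNA.777 to SPNCRNA.784, described below, are all among those higher in mamRNA∆.

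**Figure D1:**
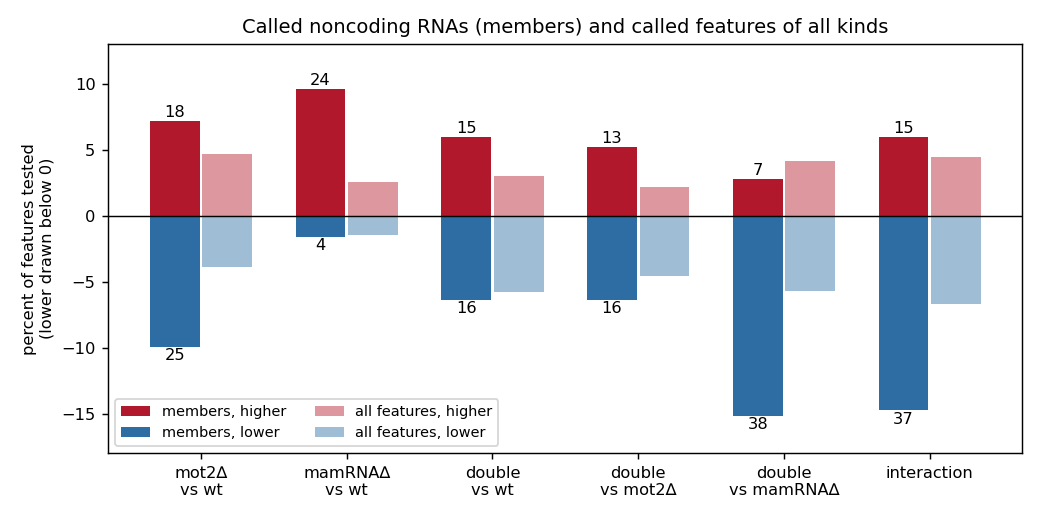
Percent of the 251 tested noncoding RNAs (members, dark bars, with their number) and of all 6620 tested features (pale bars) called higher (above 0) or lower (below 0) in each comparison. The RNAs lower in the double mutant than in mamRNA∆ (38) and those with an interaction below 0 (37) make up about 15% of the members, against 5.71% and 6.69% of all features.

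As a group, the RNAs shifted little. The median log2 fold change of the 251 was -0.12 in mot2∆ against wt, 0.08 in mamRNA∆ against wt, -0.09 in the double mutant against wt, 0.04 in the double mutant against mot2∆ and -0.20 in the double mutant against mamRNA∆, where the medians over all features lay between -0.02 and -0.01. Their median interaction was -0.12, against 0.00 over all features. In mamRNA∆ against wt, 23 of 247 SPNCRNA features numbered below 600 (9.31%) and 13 of 210 numbered 1200 and above (6.19%) were higher, and 64 of 5064 protein-coding genes (1.26%). In mot2∆ against wt, 16.2% of the lower and 14.8% of the higher numbers were lower, beside 9.96% of the 251, and in the double mutant against wt 12.96% and 12.4%, beside 6.37%. In the double mutant against mot2∆, 9.72% of the numbers below 600 were higher and 4.45% lower. In the double mutant against mamRNA∆, 15.8% of the lower and 16.7% of the higher numbers were lower, beside 15.1% of the 251. The interaction was below 0 for 10.9% and 12.9% of them, beside 14.7%. No test was run between these sets. Of the 117 RNAs tested that overlap no protein-coding gene, 15 were higher and 20 lower in mot2∆, 18 higher and 4 lower in mamRNA∆, and 5 higher and 26 lower in the double mutant against mamRNA∆. In the double mutant they were 9 of the 15 higher and 10 of the 16 lower RNAs against wt, and 6 of 13 and 8 of 16 against mot2∆. Of 85 that overlap a gene on the opposite strand only, 2 were higher and 3 lower, 5 higher and 0 lower, and 2 higher and 9 lower in mot2∆, in mamRNA∆ and in the double mutant against mamRNA∆.

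A reciprocal pattern lay upstream of gsf2, which encodes a flocculin, a cell surface protein that makes yeast cells stick together. SPNCRNA.1164 (chrIII:966133-971255, plus strand) starts to read away from gsf2 121 bp upstream of it, and SPNCRNA.1165 and SPNCRNA.1166 lie inside its span on the strand of gsf2. SPNCRNA.1164 was at 17.3 and 15.6 CPM in wt, 61.2 and 52.8 CPM in mot2∆, 30.7 and 32.8 CPM in mamRNA∆ and 13.2 and 12.2 CPM in the double mutant. Both mot2∆ libraries stood highest, both mamRNA∆ libraries came next, and the double mutant lay just below wt (-0.32 on the log2 scale). Its log2 fold change was 1.76 (SE 0.10, edgeR adjusted p = 4.85e-08) in mot2∆ against wt and 0.92 (SE 0.10, edgeR adjusted p = 3.16e-05) in mamRNA∆ against wt, which did not pass the fold threshold, although it did (1.06) without wt replicate 1. Deleting mamRNA in mot2∆ cells lowered it (-2.08, SE 0.10, edgeR adjusted p = 1.18e-08), and the interaction was -2.996 (SE 0.14, edgeR adjusted p = 1.59e-08).

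SPNCRNA.1165 moved further, at 1.16 and 1.78 CPM in wt, 7.83 and 6.66 CPM in mot2∆, 3.58 and 3.95 CPM in mamRNA∆ and 0.906 and 1.01 CPM in the double mutant. It rose against wt in mot2∆ (2.25, SE 0.19, edgeR adjusted p = 1.04e-06) as in mamRNA∆ (1.32, SE 0.20, edgeR adjusted p = 0.000335), and deleting mamRNA in mot2∆ cells lowered it (-2.83, SE 0.19, edgeR adjusted p = 2.26e-07). SPNCRNA.1166 was at 3.57 and 3.37 CPM in wt, 9.84 and 8.40 CPM in mot2∆, 5.35 and 6.09 CPM in mamRNA∆ and 2.72 and 2.79 CPM in the double mutant and was called in mot2∆ (1.36) and in the double mutant against mot2∆ (-1.64). The gene itself changed by more: gsf2 was at 272 and 265 CPM in wt, 5419 and 5097 CPM in mot2∆, 2907 and 2907 CPM in mamRNA∆ and 457 and 462 CPM in the double mutant. Its log2 fold change was 4.25 in mot2∆ and 3.40 in mamRNA∆ against wt, and its interaction was -6.83. For the 3 RNAs and the gene, mot2∆ stood highest and mamRNA∆ next, while in the double mutant both gsf2 libraries lay above wt (0.82) and those of the 3 RNAs below it, without a call for any of the 4. Because SPNCRNA.1165 and SPNCRNA.1166 lie within SPNCRNA.1164, reads may be shared, and the values of the 3 RNAs are not independent.

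SPNCRNA.1164 holds 11 copies of TNAAAC, the DNA form of the UNAAAC motif, on its own strand, or 2.15 per kb, close to the 2.01 per kb over the 246 annotated RNAs. The stretch with most copies is shown because the motif is the element Mmi1 reads, with the copies in capitals. It lies at the end of the RNA far from gsf2 (chrIII:971071-971220, plus strand of ASM294v3, bases 4939 to 5088 of the transcript).
SPNCRNA.1164: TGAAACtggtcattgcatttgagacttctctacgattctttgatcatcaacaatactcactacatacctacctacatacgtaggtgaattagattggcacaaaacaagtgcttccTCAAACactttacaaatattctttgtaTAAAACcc

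**Figure D2:**
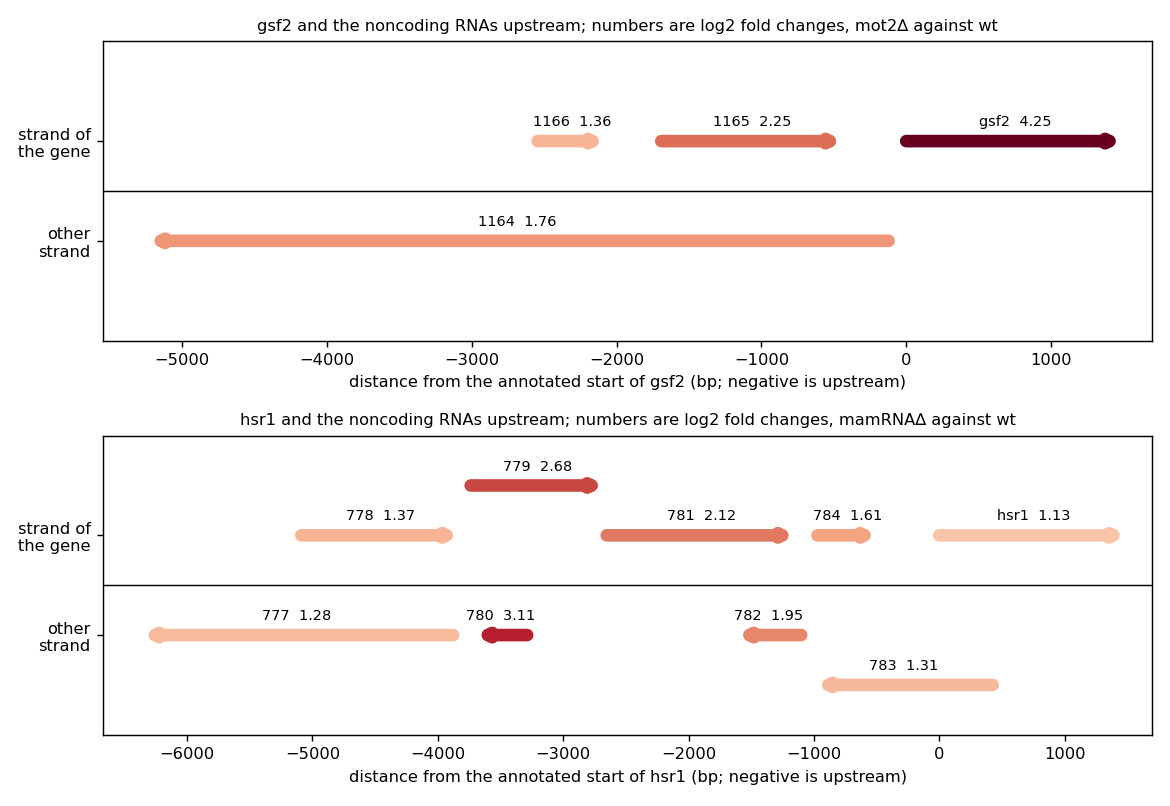
Positions of gsf2 (top) and hsr1 (bottom) and of the noncoding RNAs upstream, in bp from the annotated start of the gene; arrows give the direction of transcription, colour and numbers give the log2 fold change, and only the first part of each gene is drawn. All 3 RNAs upstream of gsf2 rose in mot2∆ (1.36 to 2.25) with the gene (4.25). All 8 RNAs by hsr1 rose in mamRNA∆ (1.28 to 3.11) with the gene (1.13). SPNCRNA.1162, 719 bp downstream of gsf2, is not drawn. RNAs drawn over the same positions may share reads.

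Near pfl6, another flocculin gene, SPNCRNA.601 (chrI:40916-41770) was also highest in mot2∆, at a low level, with 0.581 and 0.606 CPM in wt, 2.19 and 2.04 CPM in mot2∆, 0.703 and 0.923 CPM in mamRNA∆ and 0.0585 and 0.0950 CPM in the double mutant. It lies 287 bp downstream of pfl6 on the same strand and overlaps SPNCRNA.136, another counted RNA. The log2 fold change was 1.80 (SE 0.25, edgeR adjusted p = 7.67e-05) in mot2∆ against wt. In the double mutant only 2 and 3 counts were left, so the mot2∆ level was 27.8 times that of the double mutant with a 95% exact counting interval of 11.6 to 87.2, and the wt level 7.82 times (2.99 to 25.9). The gene pfl6 was at 0.581 and 0.303 CPM in wt, 69.8 and 85.5 CPM in mot2∆, 5.52 and 5.62 CPM in mamRNA∆ and 0.263 and 0.443 CPM in the double mutant, highest in mot2∆ as well. Its difference between the double mutant and wt did not pass the test (log2 fold change -0.24, edgeR adjusted p = 0.703).

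A run of 8 consecutively numbered RNAs, SPNCRNA.777 to SPNCRNA.784, fills the region upstream of hsr1, which encodes a zinc finger transcription factor of the oxidative stress response. Of these, 779, 780 and 781 met the rule for named RNAs and the other 5 were added after their values were seen. All 8 were called higher in mamRNA∆ against wt, with log2 fold changes from 1.28 to 3.11, and hsr1 rose by 1.13. SPNCRNA.780 was at 0.581 and 0.606 CPM in wt, 1.30 and 1.32 CPM in mot2∆, 5.19 and 5.28 CPM in mamRNA∆ and 1.14 and 1.55 CPM in the double mutant and had the largest increase of all the RNAs named here in mamRNA∆, 3.11 (SE 0.22, edgeR adjusted p = 7.27e-07). SPNCRNA.779, on the other strand of the same stretch, was at 2.14 and 2.76 CPM in wt, 5.26 and 5.21 CPM in mot2∆, 16.9 and 15.4 CPM in mamRNA∆ and 3.62 and 3.99 CPM in the double mutant. These values place mamRNA∆ far above the other genotypes, with mot2∆ and the double mutant between it and wt.

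SPNCRNA.781 (chrI:1954820-1956332) rose in both single mutants, at 5.18 and 5.91 CPM in wt, 17.9 and 20.1 CPM in mot2∆, 25.4 and 23.9 CPM in mamRNA∆ and 12.04 and 11.7 CPM in the double mutant. Its log2 fold change was 1.74 (SE 0.11, edgeR adjusted p = 1.32e-07) in mot2∆ and 2.12 (SE 0.11, edgeR adjusted p = 4.78e-08) in mamRNA∆, and it was also called above wt in the double mutant (1.15). The double mutant differed from mot2∆ by -0.59 and from mamRNA∆ by -0.97, neither past the fold threshold. The interaction was -2.71 (SE 0.15, edgeR adjusted p = 5.6e-08). For SPNCRNA.777, 778, 782, 783 and 784 the mot2∆ change stayed between -0.16 and 0.81 and none was called. Between the members of the run, 777 overlaps 778, 779 overlaps 780, 781 overlaps 782 and 783 overlaps 784 on opposite strands, while 777 also reaches into pcs2 and 783 into hsr1, so their values are not independent. The gene pcs2 at the far end of the run changed by 0.32 in mamRNA∆.

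SPNCRNA.781 holds 7 TNAAAC copies in 1513 bases, 4.63 per kb, against 2.01 per kb over the annotated RNAs. The rest of the run held fewer per kb. SPNCRNA.777 held 7 (2.81 per kb), SPNCRNA.778, 783 and 784 held 1 each (0.79, 0.70 and 2.05 per kb), and SPNCRNA.779, 780 and 782 held 0, although 780 and 779 had the largest changes of the run in mamRNA∆. The densest stretch of SPNCRNA.781 is shown with the copies in capitals (chrI:1955763-1955912, plus strand, bases 944 to 1093).
SPNCRNA.781: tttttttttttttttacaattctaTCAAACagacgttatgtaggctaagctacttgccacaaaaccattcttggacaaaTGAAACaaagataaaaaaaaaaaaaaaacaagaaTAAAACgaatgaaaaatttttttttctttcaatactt

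Further RNAs were called against wt in mamRNA∆ and in neither mutant without Mot2. SPNCRNA.679 (chrI:762720-764810), divergent from puf5, which encodes a Pumilio-family RNA-binding protein, was at 12.3 and 15.2 CPM in wt, 21.7 and 18.5 CPM in mot2∆, 76.4 and 73.9 CPM in mamRNA∆ and 10.2 and 9.27 CPM in the double mutant. Its log2 fold change was 2.42 (SE 0.09, edgeR adjusted p = 5.85e-09) in mamRNA∆ against wt and -2.86 (SE 0.09, edgeR adjusted p = 8.92e-10) in the double mutant against mamRNA∆, which left both libraries below wt. SPNCRNA.680, the next RNA along, overlaps SPAC4G8.04 at its end on the same strand and was at 8.13 and 8.33 CPM in wt, 6.80 and 7.94 CPM in mot2∆, 29.8 and 25.4 CPM in mamRNA∆ and 6.84 and 5.79 CPM in the double mutant (1.72 in mamRNA∆ against wt), while SPAC4G8.04 changed by 0.37 and was not called. The gene puf5 rose in mamRNA∆ by 1.48 and was lower in the double mutant than in wt (-1.06). SPNCRNA.865 rose from 158 and 136 CPM in wt to 1069 and 924 CPM in mamRNA∆ (2.73, SE 0.12, edgeR adjusted p = 1.67e-08), with the same limit that its reads cannot be told from those of SPAPB24D3.07c. SPNCRNA.1141, 49 bp upstream of SPCC970.06, rose from 0.223 and 0.454 to 1.87 and 1.70 CPM (2.32, SE 0.32, edgeR adjusted p = 0.000154), while SPCC970.06 changed by 0.03.

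A further 4 RNAs in overlapping pairs, chosen after their values were seen, rose in mamRNA∆ to a like degree. The RNAs of a pair lie on opposite strands of much the same bases. Their reads may be shared, so the values within a pair are not independent. SPNCRNA.934 and SPNCRNA.935 lie on opposite strands upstream of per1, which encodes an amino acid permease, and SPNCRNA.934 was at 24.2 and 26.6 CPM in wt, 30.9 and 32.8 CPM in mot2∆, 82.5 and 95.3 CPM in mamRNA∆ and 37.5 and 37.7 CPM in the double mutant. Its log2 fold change was 1.78 (SE 0.08, edgeR adjusted p = 1.71e-08) and that of SPNCRNA.935 was 1.72. SPNCRNA.1063 and SPNCRNA.1064 lie upstream of adg1, which encodes a cell surface protein. SPNCRNA.1063 was at 9.56 and 9.69 CPM in wt, 11.5 and 11.6 CPM in mot2∆, 35.3 and 33.6 CPM in mamRNA∆ and 16.8 and 16.2 CPM in the double mutant, and the pair changed by 1.81 and 1.95. The double mutant was lower than mamRNA∆ for SPNCRNA.934 (-1.16) and SPNCRNA.935 (-1.13), while -0.98 for SPNCRNA.1063 and -0.94 for SPNCRNA.1064 stayed under the fold threshold.

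The promoters of SPNCRNA.934, 935 and 1063 hold TGACGT, the core site of the stress factor Atf1, on either strand. These are 3 of the 24 RNAs higher in mamRNA∆ (12.5%) and 3 of the 20 annotated RNAs of the range that hold it. Of the 246 annotated RNAs 8.13% hold it, and of all 6178 promoters of counted genes 5.99%. SPNCRNA.934 and SPNCRNA.935 are an overlapping pair, and a link between the motif and the change was not tested. The windows run from 250 bases before to 50 bases after the RefSeq start. Capitals mark TGACGT and GATAAG, the site of GATA factors such as the iron regulators, which 11.3% of all promoters hold (chrI:3748546-3748845 and chrI:5269924-5270223, both on the minus strand).
SPNCRNA.934: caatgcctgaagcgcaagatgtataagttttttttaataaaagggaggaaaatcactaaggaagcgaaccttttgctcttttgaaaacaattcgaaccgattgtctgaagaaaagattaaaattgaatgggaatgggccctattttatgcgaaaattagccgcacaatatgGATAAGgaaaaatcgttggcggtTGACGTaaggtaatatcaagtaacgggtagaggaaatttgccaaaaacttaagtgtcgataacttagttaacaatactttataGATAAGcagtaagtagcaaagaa
SPNCRNA.1063: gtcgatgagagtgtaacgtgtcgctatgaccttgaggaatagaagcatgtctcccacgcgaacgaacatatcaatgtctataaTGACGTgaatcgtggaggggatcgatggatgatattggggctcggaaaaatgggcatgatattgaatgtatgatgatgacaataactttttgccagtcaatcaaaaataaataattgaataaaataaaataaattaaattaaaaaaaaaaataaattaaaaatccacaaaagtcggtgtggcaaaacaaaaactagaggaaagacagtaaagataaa

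**Figure D3:**
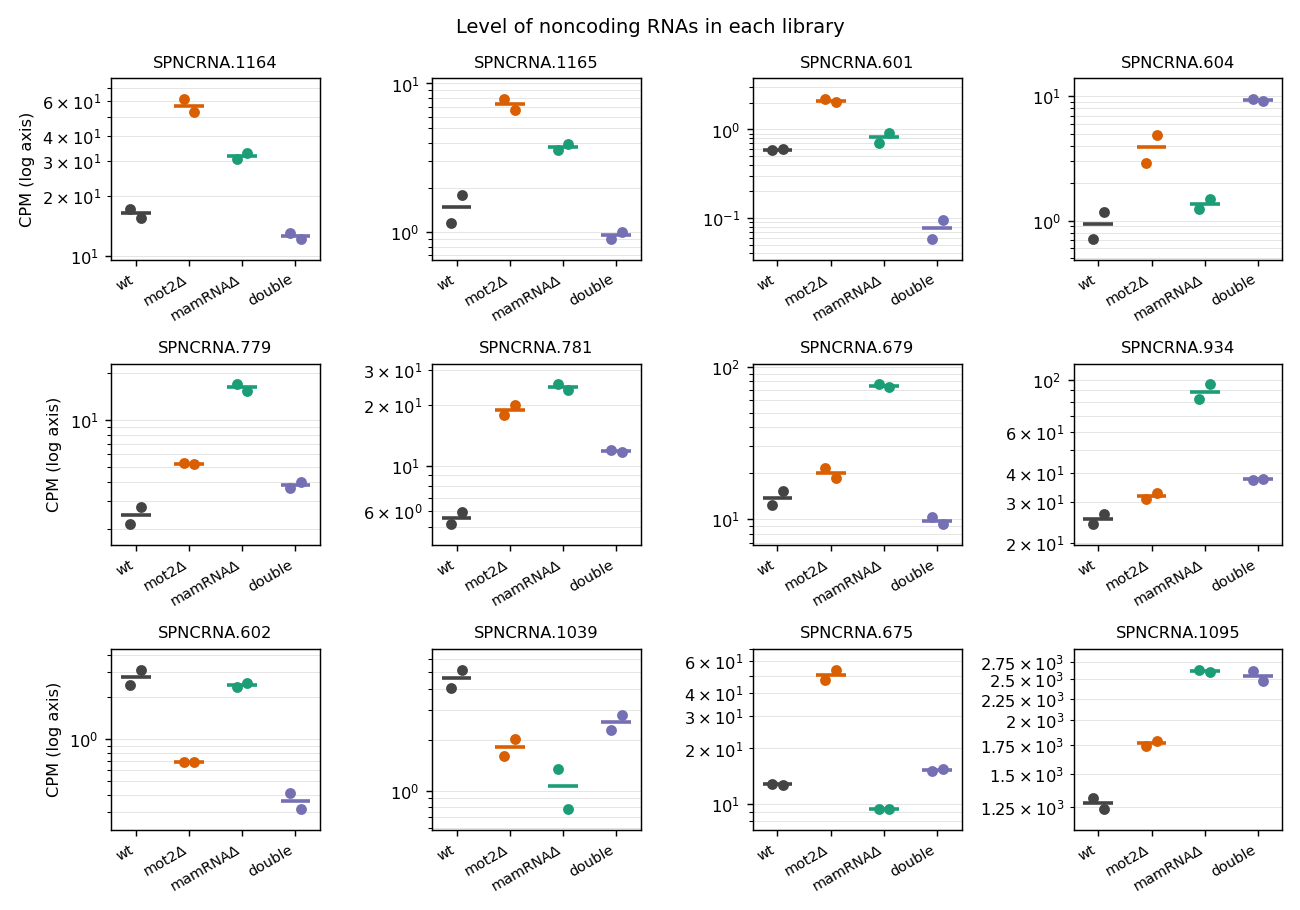
Level of 12 noncoding RNAs in each library (points, CPM on a log axis) with the mean of the 2 libraries of each genotype (lines). The RNAs by gsf2 and pfl6 (1164, 1165, 601) peak in mot2∆, those by hsr1, puf5 and per1 (779, 781, 679, 934) in mamRNA∆, and SPNCRNA.604 in the double mutant.

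SPNCRNA.604 was highest in the double mutant. It lies 392 bp upstream of str3, which encodes a plasma membrane transporter of the iron uptake system, and overlaps SPNCRNA.139. Its level was 0.715 and 1.17 CPM in wt, 2.90 and 4.84 CPM in mot2∆, 1.24 and 1.50 CPM in mamRNA∆ and 9.44 and 9.15 CPM in the double mutant. The log2 fold change was 1.99 (SE 0.30, edgeR adjusted p = 0.000116) in mot2∆ and 3.33 (SE 0.26, edgeR adjusted p = 7.28e-07) in the double mutant against wt, and the double mutant lay above each single mutant, by 1.34 and 2.83. The interaction did not pass the test (0.85, SE 0.41, edgeR adjusted p = 0.11). The gene str3 went from 3.89 and 5.53 CPM in wt to 68.3 and 187 CPM in mot2∆ and 397 and 388 CPM in the double mutant, and the 2 mot2∆ libraries differed more for the gene than for the RNA.

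SPNCRNA.941, divergent from the pyruvate kinase gene pyk1, was at 5.59 and 5.19 CPM in wt, 12.2 and 17.2 CPM in mot2∆, 8.03 and 8.80 CPM in mamRNA∆ and 17.3 and 16.8 CPM in the double mutant. It was called in mot2∆ (1.42) and in the double mutant (1.72, SE 0.17, edgeR adjusted p = 3.95e-06), while pyk1 stayed between -0.29 and 0.15 in all 6 comparisons. SPNCRNA.810 was at 2.95 and 3.11 CPM in wt, 8.58 and 9.20 CPM in mot2∆, 4.02 and 4.36 CPM in mamRNA∆ and 7.28 and 5.95 CPM in the double mutant and rose in mot2∆ (1.52) and the double mutant (1.18), while its divergent neighbour SPAC4G9.22 changed by -0.44 and -0.56. SPNCRNA.911, for which no RefSeq entry was at hand, was at 6.30 and 6.32 CPM in wt, 5.71 and 5.04 CPM in mot2∆, 10.9 and 9.29 CPM in mamRNA∆ and 13.6 and 15.2 CPM in the double mutant and rose with loss of mamRNA in mot2∆ cells (1.50, SE 0.13, edgeR adjusted p = 1.81e-06).

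Most of the named RNAs that fell in mot2∆ against wt were of low level. SPNCRNA.602, divergent from sod2, which encodes a sodium/proton antiporter, was at 2.46 and 3.14 CPM in wt, 0.683 and 0.692 CPM in mot2∆, 2.34 and 2.51 CPM in mamRNA∆ and 0.409 and 0.317 CPM in the double mutant. It overlaps prl19, another counted RNA, and fell with loss of Mot2 in both backgrounds. The log2 fold change was -2.06 (SE 0.22, edgeR adjusted p = 9.73e-06) with mamRNA and -2.64 (SE 0.25, edgeR adjusted p = 2.32e-06) without it, and sod2 fell too (-2.04 and -1.33). SPNCRNA.709, upstream of the autophagy lipase gene atg15, was at 1.52 and 2.12 CPM in wt, 0.376 and 0.330 CPM in mot2∆, 1.10 and 1.24 CPM in mamRNA∆ and 0.468 and 0.380 CPM in the double mutant and changed by -2.40 (SE 0.29, edgeR adjusted p = 2.13e-05), while atg15 changed by -0.28. SPNCRNA.976 was at 1.16 and 0.947 CPM in wt, 0.0342 and 0.330 CPM in mot2∆, 0.904 and 1.15 CPM in mamRNA∆ and 0.263 and 0.443 CPM in the double mutant (-2.51, SE 0.54, edgeR adjusted p = 0.00163). These 3 RNAs were at or below 3.14 CPM in every library, and the calls rest on few counts.

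The same held for SPNCRNA.830 at 1.16 and 1.67 CPM in wt, 0.444 and 0.363 CPM in mot2∆, 0.636 and 0.721 CPM in mamRNA∆ and 0.380 and 0.380 CPM in the double mutant, which was lower in mot2∆ (-1.84), in mamRNA∆ (-1.09) and in the double mutant (-1.84) than in wt. Its call in mamRNA∆ was lost without wt replicate 2 (log2 fold change -0.86) and with DESeq2 (-1.09). SPNCRNA.756, divergent from rlp7, was at 1.03 and 1.63 CPM in wt, 0.478 and 0.297 CPM in mot2∆, 1.04 and 0.952 CPM in mamRNA∆ and 0.760 and 0.633 CPM in the double mutant, with -1.82 in mot2∆ against wt and an interaction of 1.40 that was lost (1.08 to 1.40) with total-count scaling, with DESeq2 and without wt replicate 2, mot2∆ replicate 2, mamRNA∆ replicate 2 or double mutant replicate 1. SPNCRNA.1084 was at 6.34 and 7.19 CPM in wt, 1.67 and 1.88 CPM in mot2∆, 7.50 and 7.70 CPM in mamRNA∆ and 3.51 and 4.65 CPM in the double mutant, low in mot2∆ (-1.96, SE 0.18, edgeR adjusted p = 2.28e-06) and higher in the double mutant (1.28 against mot2∆).

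SPNCRNA.706 and SPNCRNA.828, opposite protein-coding genes, were lowest in the double mutant. SPNCRNA.706 was at 85.2 and 92.7 CPM in wt, 49.01 and 46.5 CPM in mot2∆, 84.7 and 84.6 CPM in mamRNA∆ and 18.6 and 16.2 CPM in the double mutant (-2.30, SE 0.08, edgeR adjusted p = 1.25e-09 against wt), and SPAC139.05, which covers most of it from the other strand, changed by -2.44. SPNCRNA.828 was at 63.00 and 80.4 CPM in wt, 31.5 and 33.02 CPM in mot2∆, 44.6 and 46.2 CPM in mamRNA∆ and 19.4 and 19.8 CPM in the double mutant (-1.81 against wt), and SPAC32A11.02c on its other strand changed by -2.02. SPNCRNA.1124 was at 8.58 and 17.5 CPM in wt, 10.9 and 7.71 CPM in mot2∆, 4.65 and 25.2 CPM in mamRNA∆ and 2.95 and 2.41 CPM in the double mutant, so that the 2 mamRNA∆ libraries differed more than 5-fold. Its call in the double mutant against wt (-2.23) was lost without wt replicate 2 (-1.69), that against mamRNA∆ (-2.41) without mamRNA∆ replicate 2 (-0.71), and that against mot2∆ (-1.70) with total-count scaling, with DESeq2 and without any 1 library of wt, mot2∆ or the double mutant (-1.92 to -1.44).

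Among called RNAs with a mean of at least 1 CPM in some genotype, SPNCRNA.1039 had the largest interaction above 0. It lies 886 bp upstream of vht1, the biotin transporter gene, on the other strand, and was at 4.02 and 5.19 CPM in wt, 1.61 and 2.01 CPM in mot2∆, 1.34 and 0.779 CPM in mamRNA∆ and 2.28 and 2.79 CPM in the double mutant. The log2 fold change was -1.38 (SE 0.22, edgeR adjusted p = 0.000214) in mot2∆ and -2.17 (SE 0.24, edgeR adjusted p = 2.9e-05) in mamRNA∆ against wt, and the double mutant lay above mamRNA∆ by 1.36, a call lost without mamRNA∆ replicate 2 (0.99). The interaction was 2.74 (SE 0.34, edgeR adjusted p = 4.2e-05). SPNCRNA.1039 overlaps SPNCRNA.256, another counted RNA, and reads may be shared. The gene vht1 was at 933 and 883 CPM in wt and 212 and 183 CPM in mamRNA∆ (-2.23), and its interaction was 2.34. SPNCRNA.1190 lies upstream of ags1, the alpha-glucan synthase gene, and was at 1.52 and 1.40 CPM in wt, 1.78 and 2.04 CPM in mot2∆, 0.268 and 0.606 CPM in mamRNA∆ and 2.08 and 1.80 CPM in the double mutant. Only the mamRNA∆ libraries were low (-1.72, SE 0.33, edgeR adjusted p = 0.00163), whereas ags1 changed by 0.22.

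Loss of mamRNA raised SPNCRNA.953, SPNCRNA.916 and SPNCRNA.1123 in mot2∆ cells, with no call in cells with Mot2. SPNCRNA.953, which SPAPB18E9.04c overlaps from the other strand, was at 61.1 and 68.2 CPM in wt, 30.6 and 27.7 CPM in mot2∆, 46.2 and 47.6 CPM in mamRNA∆ and 67.9 and 57.2 CPM in the double mutant, with -1.18 in mot2∆ against wt, 1.19 in the double mutant against mot2∆ and an interaction of 1.68 (SE 0.12, edgeR adjusted p = 3.78e-07). SPAPB18E9.04c changed by 1.96 between the double mutant and mot2∆. SPNCRNA.916, overlapping the vacuolar ATPase gene vma6, was at 6.26 and 7.80 CPM in wt, 4.14 and 4.12 CPM in mot2∆, 8.37 and 7.99 CPM in mamRNA∆ and 12.7 and 11.2 CPM in the double mutant (1.62, SE 0.13, edgeR adjusted p = 8.13e-07 against mot2∆, interaction 1.44), and vma6 changed by 0.32. SPNCRNA.1123 was at 1.83 and 2.20 CPM in wt, 1.64 and 1.48 CPM in mot2∆, 3.01 and 1.99 CPM in mamRNA∆ and 4.15 and 3.89 CPM in the double mutant (1.45 against mot2∆). SPNCRNA.1182 was at 3.89 and 4.77 CPM in wt, 3.73 and 3.33 CPM in mot2∆, 2.88 and 3.84 CPM in mamRNA∆ and 5.87 and 6.17 CPM in the double mutant, with an interaction of 1.25 and no call between genotypes. SPNCRNA.1113 and SPNCRNA.1138, both opposite protein-coding genes, were higher in the double mutant than in mamRNA∆ (1.37 and 1.04), as were SPCC320.08 (1.49) and rix1 (1.32). The call of SPNCRNA.1138 was lost without mamRNA∆ replicate 2 (0.96).

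SPNCRNA.675 and SPNCRNA.993 lie at genes of mating and meiosis. SPNCRNA.675 overlaps rgs1, a regulator of G protein signalling in the pheromone response, on the opposite strand and was at 12.8 and 12.6 CPM in wt, 47.02 and 53.9 CPM in mot2∆, 9.34 and 9.35 CPM in mamRNA∆ and 15.1 and 15.5 CPM in the double mutant. It rose in mot2∆ (1.96, SE 0.10, edgeR adjusted p = 1.39e-08) and fell when mamRNA was also deleted (-1.64, SE 0.09, edgeR adjusted p = 5.87e-08), and rgs1 changed by 2.26 and -2.10. SPNCRNA.675 also overlaps SPNCRNA.158, another counted RNA. SPNCRNA.993, chosen after its values were seen, is divergent from mei2, with 156 bases between them, and was at 2.41 and 2.20 CPM in wt, 3.93 and 3.99 CPM in mot2∆, 2.24 and 2.02 CPM in mamRNA∆ and 1.23 and 1.80 CPM in the double mutant. Deleting mamRNA in mot2∆ cells lowered it (-1.30, SE 0.20, edgeR adjusted p = 0.000163), while its change in mot2∆ against wt (0.75, SE 0.20, edgeR adjusted p = 0.00549) did not pass the fold threshold. The gene mei2 was at 521 and 428 CPM in wt, 1124 and 922 CPM in mot2∆, 358 and 369 CPM in mamRNA∆ and 442 and 392 CPM in the double mutant, with 1.06 in mot2∆ against wt and -1.21 in the double mutant against mot2∆.

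The promoter window of SPNCRNA.993 is shown because it spans the shared region with mei2 (chrI:4514932-4515231, plus strand). Capitals mark TTCTTTGTT on either strand, the core of the box bound by Ste11, the transcription factor of sexual differentiation, and GTAAACA, the forkhead core, which overlaps 1 of its copies. The window holds 4 copies of the Ste11 core, 2 of them in the part that belongs to mei2 and 1 between the pair, and it was the only 1 of 6178 promoter windows with 4 or more, where 2.04% held at least 1.
SPNCRNA.993: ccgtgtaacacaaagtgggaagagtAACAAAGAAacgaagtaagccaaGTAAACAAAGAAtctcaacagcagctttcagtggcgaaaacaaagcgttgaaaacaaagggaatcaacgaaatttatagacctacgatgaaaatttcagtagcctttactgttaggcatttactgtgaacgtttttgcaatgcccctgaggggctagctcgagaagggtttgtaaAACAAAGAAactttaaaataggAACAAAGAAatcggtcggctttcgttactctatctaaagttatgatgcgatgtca

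By level per length, the highest 2 RNAs in wt were SPNCRNA.1094 and SPNCRNA.1095. They lie side by side on the minus strand near the left end of chromosome III (chrIII:23658-23889 and chrIII:23919-24438), 527 bp upstream of the ribosomal RNA gene SPRRNA.44 on the same strand. SPNCRNA.1094 was at 691 and 609.7 CPM in wt, 810.2 and 862 CPM in mot2∆, 1265 and 1333 CPM in mamRNA∆ and 1214 and 1155 CPM in the double mutant and SPNCRNA.1095 at 1314 and 1238 CPM in wt, 1746 and 1792 CPM in mot2∆, 2633 and 2598 CPM in mamRNA∆ and 2614 and 2479 CPM in the double mutant. Both were lowest in wt, intermediate in mot2∆ and highest in mamRNA∆ and the double mutant. The log2 fold change of SPNCRNA.1095 was 1.002 (SE 0.10, edgeR adjusted p = 9.71e-06) in mamRNA∆ and 1.05 (SE 0.10, edgeR adjusted p = 2.84e-06) in the double mutant against wt, and SPNCRNA.1094 stayed under the threshold with 0.96 and 0.91. The pair held between 20.6% and 35.8% of all counts of the 255 RNAs. The share of the library taken by the 255 RNAs was 0.866% and 0.896% in wt, 1.01% and 0.990% in mot2∆, 1.24% and 1.25% in mamRNA∆, with 1.07% and 1.04% in the double mutant. Without the pair it was 0.665% and 0.711% in wt, 0.752% and 0.725% in mot2∆, 0.847% and 0.856% in mamRNA∆, with 0.687% and 0.680% in the double mutant, so the double mutant then overlapped wt. Reads from ribosomal RNA precursors were not told apart from these 2 RNAs, and the depletion of ribosomal RNA differed between libraries.

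Of the next 8 by level per length, 1 was called between genotypes, SPNCRNA.1121. SPNCRNA.942 ranged from 226 to 373 CPM over the 8 libraries and SPNCRNA.808 from 243 to 437 CPM. SPNCRNA.870, opposite the lysine synthesis gene lys12, was at 612 to 895 CPM and was not called, whereas lys12 was called lower in mot2∆ (-1.06). Protein-coding genes cover 76.4% of the 2070 bp of SPNCRNA.870, and lys12 overlaps 987 bp of them. Reads of the RNA cannot be told apart from those of the genes. The gene lys12 was at 330 and 310 CPM in wt. SPNCRNA.743, which overlaps the thiamine transporter gene thi9 on the other strand, was lowest in mamRNA∆, at 186 and 174 CPM against 322 and 336 CPM in wt, a change of -0.90 that did not pass the fold threshold. It also overlaps SPNCRNA.171, another counted RNA. SPNCRNA.1121, opposite the hexose transporter gene ght1, was called in mot2∆, at 1016 and 746 CPM against 386 and 298 CPM in wt (1.32, SE 0.16, edgeR adjusted p = 2.26e-05), and ght1 changed by 1.52. SPNCRNA.1015, SPNCRNA.1071 and SPNCRNA.965 were not called in any comparison. SPNCRNA.1071 overlaps the heat shock gene hsp9 on the same strand and had the largest change of the 3, -0.99 in the double mutant against mamRNA∆, where hsp9 changed by -1.13.

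By wt level, the calls were not limited to weak RNAs. Of the 63 RNAs of lowest wt level (0.136 to 1.95 CPM), 13 were lower in mot2∆ than in wt, and of the 63 of highest level (19.6 to 1276 CPM) 3 were. In mamRNA∆ against wt, 9 of the lowest and 5 of the highest 63 were higher. Over all features, 3.88% were lower in mot2∆ and 2.52% higher in mamRNA∆ against wt. The wt libraries that set these levels also enter both comparisons. Of the 81 longest RNAs (1413 to 5123 bp), 19 had a called interaction below 0, where 6.69% of all features did. Of the 80 of middle length (819 to 1391 bp) 6 did, and of the 81 shortest (232 to 817 bp) 11. The longest had a median wt level of 25.5 CPM, those of middle length 4.33 CPM and the shortest 1.93 CPM. The difference between these groups was not tested, and no share was taken over other features of like level or length.

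To see whether RNAs moved with the gene beside them, each was set beside its overlapping or nearest protein-coding gene. Across 41 RNAs covered by 50% or more, the Pearson correlation of the log2 fold changes lay between 0.80 and 0.92 over the 6 comparisons. Across 117 RNAs with no overlap, which have 103 different nearest genes, it lay between 0.31 and 0.72, and Spearman's rho, which gives the large changes at gsf2, pfl6 and str3 less weight, between 0.21 and 0.38. These values describe features measured in the same libraries. Of the 35 RNAs with no overlap that were called in mot2∆ against wt, the nearest gene was called in the same direction for 7 and in the opposite direction for 3. Of the 22 called in mamRNA∆ against wt, it was called in the same direction for 8 and in the opposite direction for 0. Of all 5064 protein-coding genes, 3.91% were higher and 2.53% lower in mot2∆ against wt, and 1.26% and 1.28% in mamRNA∆. In the double mutant the same direction held for 4 of 19 against wt, 6 of 14 against mot2∆ and 8 of 31 against mamRNA∆. The opposite direction held for 0. Some RNAs share a nearest gene, which then counts more than once. SPNCRNA.1092, chosen after its values were seen, is 1 of the 3 with an opposite call in mot2∆. It changed by -1.75 there at under 1 CPM, while the proline permease gene put4, 114 bp away, was called higher.

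**Figure D4:**
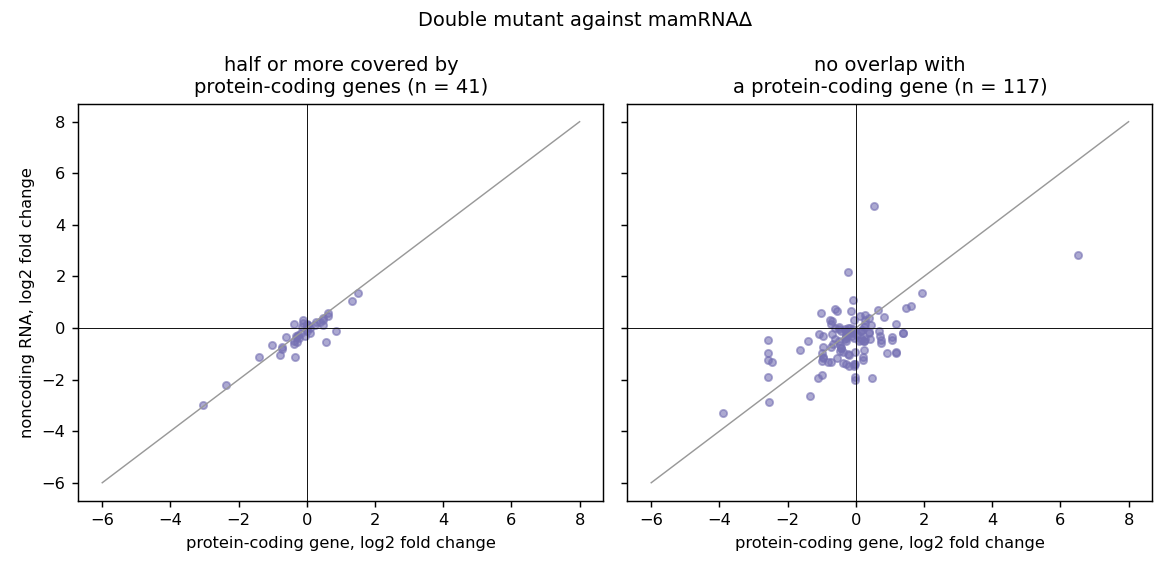
Log2 fold change of each noncoding RNA (vertical) and of its overlapping or nearest protein-coding gene (horizontal), double mutant against mamRNA∆; each point is 1 RNA and the diagonal marks equal change. The 41 RNAs covered by genes by 50% or more lie along the diagonal (Pearson r = 0.92), and the 117 with no overlap scatter around it (r = 0.52).

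The effect of losing Mot2 was measured in separate libraries in cells with mamRNA and in cells without it. Of the 18 RNAs higher in mot2∆ than in wt, 2 (SPNCRNA.604 and SPNCRNA.941) were also higher in the double mutant than in mamRNA∆, which is 11.1% of the first list and 28.6% of the second, and 5 were lower there (27.8% and 13.2%), SPNCRNA.601, 779, 780, 1164 and 1165. Of the 25 that fell in mot2∆, 9 fell in the second comparison too (36.0% and 23.7%), SPNCRNA.602, 709, 828 and 976 among them, and SPNCRNA.1039 was higher there. Over all features, 59 were higher in both (19.0% and 21.5% of the lists) and 126 lower in both (49.0% and 33.3%). For mamRNA, 0 of the 24 RNAs higher in mamRNA∆ than in wt were higher in the double mutant than in mot2∆ and 2 were lower (8.33% and 12.5%), SPNCRNA.865 and SPNCRNA.1165. Over all features, 12 were higher in both (7.19% and 8.45%) and 30 went from higher to lower (18.0% and 9.87%).

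TNAAAC occurred at least once on the transcript strand of 201 of the 246 annotated RNAs (81.7%), with a median of 2 copies. It occurred in 20 of the 24 RNAs higher in mamRNA∆, in 14 of the 18 higher in mot2∆ and in 18 of the 24 annotated RNAs lower in mot2∆. Per kb there were 2.40, 1.90 and 2.01 copies, against 1.76 in protein-coding genes. Of the other motifs searched in promoters on both strands, GTAAACA was in 30 of 246 (12.2%, against 15.9% of all promoters). GATAAG was in 28 (11.4% against 11.3%) and TTCTTTGTT in 12 (4.88% against 2.04%). CAGTCACA, the HomolD box, was in 6 (2.44% against 2.62%). These shares were not compared by a test.

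Calls among genes known to make or remove such RNAs were counted by list, and no list was tested against all features. Over all features, 4.68% were higher and 3.88% lower in mot2∆ against wt. In the double mutant 3.04% were higher and 5.76% lower against wt, and 2.15% and 4.59% against mot2∆. Of 18 genes for nuclear RNA elimination and the exosome, 1 was called in the double mutant against wt, erh1, which encodes the partner of Mmi1 (-1.17), and 0 in the single mutants. Of 8 termination genes, sen1, which encodes a helicase, fell in mot2∆ (-1.16) and seb1, which encodes a termination factor that binds nascent RNA, rose in the double mutant (1.31). Against mot2∆, 1 of the 8 was higher in the double mutant. Of 5 RNA interference genes, rdp1, the RNA-dependent RNA polymerase gene, was higher in the double mutant than in mot2∆ (1.50) and no other was called there. Of 11 genes for chromatin repression of noncoding transcription, cph1, which encodes a subunit of a histone deacetylase complex, rose in mot2∆ (1.16), and clr4, the histone H3 lysine methyltransferase gene of heterochromatin, fell in the double mutant against mot2∆ (-1.38). Of 8 cytoplasmic decay genes tested, dcp1 and lsm1 were lower in the double mutant than in wt (-1.12 and -1.03). The interaction was called above 0 for 1 gene each of the elimination, termination and RNA interference lists. It was below 0 for 1 chromatin gene. Over all features, 4.46% were above 0 and 6.69% below.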

How the data were processed

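Per the labels and the study's methods, the authors trimmed reads with Cutadapt 1.15, aligned them with Bowtie2 and ran MulticovBed for the counts. What they deposited is a table of unnormalised counts per library. The authors' values are whole counts per feature. The genome build, the annotation and the use of strand are not given in the sources used here. Groups and replicate numbers come from the sample titles.

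Low counts were filtered by filterByExpr with 10 as the minimum count and 15 as the minimum total, which left 6620 features. Scaling was by TMM, and 1 model with a term for each genotype was fitted to the 8 libraries in edgeR 4.0.16 (R 4.3.3, limma 3.58.1). Tests were its two-sided quasi-likelihood F tests with Benjamini-Hochberg adjustment over the 6620 features. The standard error (SE) is the log2 fold change divided by the square root of F. CPM uses the total count of each library, and intervals cover counting error only. The fit was tested on simulated data.

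Named were the 10 RNAs of highest wt CPM per kb and SPNCRNA.1164. Per contrast, so were the 6 highest and 6 lowest called RNAs with at least 1 CPM in the higher genotype and non-overlapping libraries. For the interaction they were the 6 highest and 6 lowest called RNAs with a mean of at least 1 CPM in some genotype. Other genes are neighbours of these or from lists. Members, lists and motifs were chosen with earlier results of these data known. Sequences and positions come from NCBI RefSeq, assembly ASM294v3. The alternatives were RLE and total-count scaling, DESeq2 1.42.0, other filters, thresholds and sets of features, a replicate block, and leaving out each library.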

Additional observations from a re-analysis of the deposited data

Results flagged for a closer look

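The change on losing Mot2 differed between cells with and without mamRNA, by the test of the interaction, for 15 RNAs above 0 and 37 below 0. Of the RNAs named by rule, those above 0 were SPNCRNA.1039 (2.74 on the log2 scale), SPNCRNA.1190 (1.82), SPNCRNA.953 (1.68), SPNCRNA.916 (1.44), SPNCRNA.756 (1.40) and SPNCRNA.1182 (1.25). Those below 0 were SPNCRNA.601 (-5.08), SPNCRNA.1165 (-4.14), SPNCRNA.865 (-3.87), SPNCRNA.679 (-3.38), SPNCRNA.779 (-3.05) and SPNCRNA.1164 (-2.996). With 2 libraries per genotype no single library was tested as standing apart.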

How the results depend on the processing

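Under a replicate block there were 18 higher and 24 lower RNAs in mot2∆, 25 and 4 in mamRNA∆, 15 and 16 in the double mutant against wt, 13 and 16 against mot2∆, 7 and 38 against mamRNA∆, and 16 and 38 interactions above and below 0, and the block changed the call of no named RNA. The replicate differences of 2 genotypes had correlations between -0.108 and 0.163 across features, so the numbers were not taken to pair libraries. Because 1 of the 6 was under -0.1, a block that swaps the mamRNA∆ numbers was chosen after seeing the data, and it gave 25 and 4 RNAs in mamRNA∆ and 7 and 38 in the double mutant against mamRNA∆.

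Without a fold threshold, the RNAs higher and lower were 62 and 75 in mot2∆, 65 and 27 in mamRNA∆, 55 and 79 in the double mutant against wt, 53 and 52 against mot2∆ and 35 and 92 against mamRNA∆, with 38 and 65 interactions above and below 0. With an absolute log2 fold change over 2 they were 1 and 3, 6 and 2, 1 and 5, 0 and 3, 3 and 8, and 2 and 11. DESeq2 and a minimum of 10 counts in every library each left 2 RNAs lower in mamRNA∆ in place of 4. Total-count scaling left 8 RNAs higher and 23 lower in the double mutant against wt, 9 and 19 against mot2∆, and 10 and 44 interactions. It took the interaction's median over the 6620 features from 0.00 to -0.11, and no other scaling moved a median by over 0.1. Leaving out each library in turn gave 18 to 20 higher and 19 to 26 lower in mot2∆, 21 to 26 and 3 to 5 in mamRNA∆, 11 to 17 and 13 to 23 in the double mutant against wt, 9 to 14 and 11 to 15 against mot2∆, 6 to 9 and 35 to 41 against mamRNA∆, and 10 to 22 and 33 to 39 interactions. Of 72 fold changes of named RNAs, none changed sign under the 20 alternatives, and 62 kept their call under all of them other than the fold of 2, although the minimum of 10 counts in every library left 10 without a value. The fit of only the genotypes compared was not run for the interaction, which needs all 4. Beside those given with the results above, the call of SPNCRNA.780 in the double mutant against wt was lost without mot2∆ mamRNA∆ replicate 2 (0.99), that of SPNCRNA.1138 also with total-count scaling, and SPNCRNA.1164 was called in the double mutant against wt (-0.32) without a fold threshold. RNAs under about 1 CPM rest on few counts per library, which limits what could be detected.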
